A study of Mus musculus with 4 samples.

Results

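The genes described here are 10 members of the TGF-beta, BMP and activin signalling system in mouse liver. They are the ligand genes *Bmp7*, *Tgfb1*, *Tgfb2*, *Inhba*, *Inhbb*, *Inhbc* and *Inhbe*, the activin inhibitor gene *Fst*, and the SMAD genes *Smad6* and *Smad9*. They were taken by gene symbol from the 22103 entries of a table of liver transcript levels, and all 10 were found. *Bmp7* and *Smad9* were picked because they differed between the genotypes, so their genotype values are given as a description with no test. The other 8 belong to the same family.

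Whole liver RNA was sequenced from 2 wild type (WT) mice and 2 Brg1LKO mice, called KO in the sample labels, which lack Brg1 in hepatocytes. Brg1 is the ATPase of the SWI/SNF chromatin remodelling complex and is encoded by *Smarca4*. In the Brg1LKO mice the Cre recombinase is driven by the albumin promoter, and the WT mice were littermates. The study describes the deletion as specific to hepatocytes, and *Smarca4* in the other cell types of the liver was not measured here. All 4 mice were males, 8 weeks of age in the study's methods, and were given alcohol in the NIAAA model, a liquid ethanol diet closed by a binge (15 days in the labels), and no liver without alcohol is part of the comparison. The comparison was made in the study to look for signals that livers send out with Brg1 and not without it. Because whole tissue was measured, fewer cells of a type and less RNA per cell cannot be told apart. The labels do not say more of the 2 livers of a group than their number, and p-values measure only the spread between these livers.

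Ligands of this family are secreted as dimers and bind pairs of type I and type II receptor kinases. TGF-beta and activin receptors phosphorylate SMAD2 and SMAD3, whereas BMP receptors phosphorylate SMAD1, SMAD5 and SMAD9, and both sets act with SMAD4. SMAD6 and SMAD7 inhibit the receptors and are themselves induced by the pathway, and in the liver BMP signals set the transcription of the iron hormone hepcidin (*Hamp*).

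Levels are in FPKM, fragments counted on a transcript divided by its length and by the library total, a unit that can be compared between genes. The low FPKM values rose in steps of 1 read, from which between 72585450 and 80913700 reads per liver were estimated. *Smarca4* stood at 1.78 and 1.95 FPKM in WT and at 0.608 and 0.579 FPKM in Brg1LKO livers. Its mean in the Brg1LKO livers was 31.8% of the WT mean, with a log2 fold change of −1.50 ± 0.336 (SE), and it was past the threshold given next. A gene was called past the threshold at an unadjusted limma p under 0.05 together with over 2-fold, both on the log2(FPKM + 0.1) scale, which shrinks the fold change of genes near 0.1 FPKM. By this rule 121 of 12346 genes tested (0.98%) were called, 54 higher (0.437%) and 67 lower (0.543%) in the Brg1LKO livers. No gene (0.0%) had an adjusted p under 0.05 in limma, and 247 (2.0%) had an unadjusted p under 0.05. With 2 livers against 2, an exact permutation test cannot go below 0.333, so limma leans on the spread shared across genes. For *Smarca4* and for every member and pathway gene tested and given a p, limma's adjusted p = 1.00, and it is not repeated at each gene.

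The activin chains were the main transcripts among the 10 genes. By mean FPKM over the 4 livers the order was *Inhbe* (12.0), *Inhbc* (7.81), *Inhbb* (3.35), *Fst* (1.71), *Tgfb1* (1.28), *Smad6* (0.982), *Inhba* (0.242), *Smad9* (0.196), *Bmp7* (0.127) and *Tgfb2* (0.0237). The levels of neighbours in this order overlapped between livers, except that *Smad6* lay above *Inhba* in all 4 livers without overlap. *Bmp7* and *Smad9*, the genes picked for their difference, were thus near the bottom of the set. *Tgfb2* was below 0.1 FPKM and was not tested, and *Bmp7* and *Smad9* passed that filter through their WT levels alone.

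**Figure D1:**
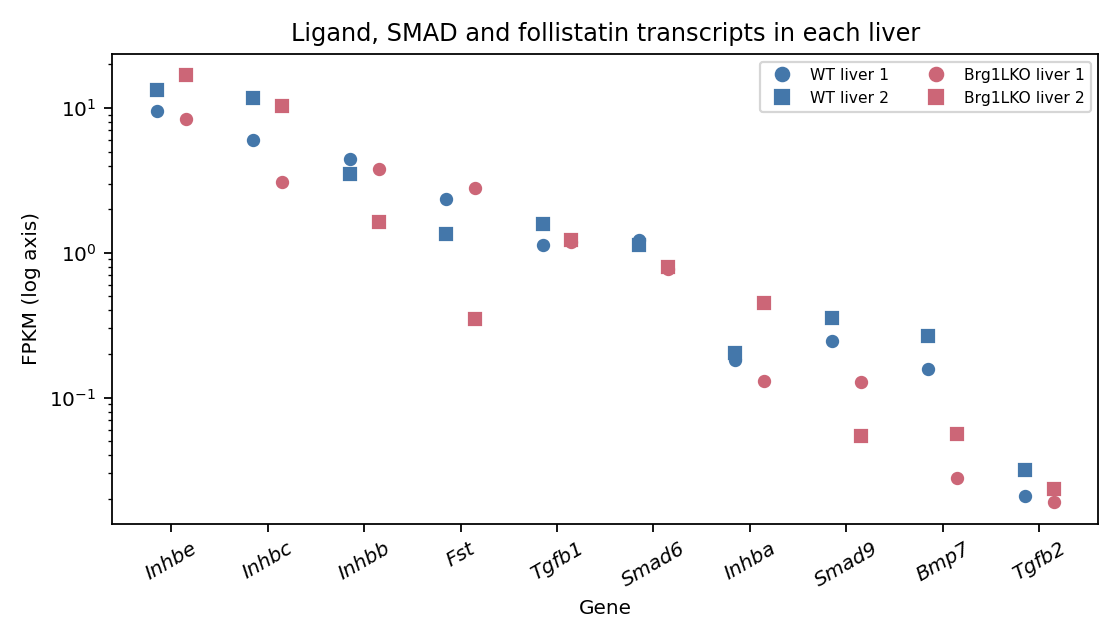
FPKM of the 10 genes in each liver on a log axis, ordered by mean, with WT livers in blue and Brg1LKO livers in red (circles liver 1, squares liver 2). Both Brg1LKO livers lie below both WT livers for *Smad6*, *Smad9* and *Bmp7*, and the genotypes overlap for the other 7 genes.

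Of the 10 genes, 9 passed the filter on low values. *Bmp7* and *Smad9* were picked on this contrast, so nothing is read from their standing over 2-fold. None of the other 7, which were tested, passed the threshold. Both Brg1LKO livers were below both WT livers for 3 of the 9, *Bmp7*, *Smad9* and *Smad6*, against 1237 of the 12346 genes tested (10%). Leaving out the picked pair, this held for 1 of 7. The median log2 fold change of these 7 was −0.52, and it was −0.02 over all genes tested. The genes further below 0 hung on single livers. Without Brg1LKO 1 and without Brg1LKO 2 the values were −2.07 and 0.62 for *Fst*, −1.21 and −0.05 for *Inhbb*, and 0.30 and −1.42 for *Inhbc*. The median is thus not read as a fall of the family.

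*Bmp7* encodes a BMP ligand known for its part in kidney development and as an opponent of TGF-beta in fibrosis. It lies at chr2:172868012-172940321 on the minus strand (GRCm38) and has 7 exons. Its levels were 0.158 and 0.266 FPKM in the WT livers and 0.0279 and 0.0563 FPKM in the Brg1LKO livers. The higher Brg1LKO liver was thus well below the lower WT liver. In estimated reads these values were 47 and 78 against 8.0 and 15, so every level rested on few reads. The means were 0.212 ± 0.0762 FPKM in WT and 0.0421 ± 0.0201 FPKM in Brg1LKO livers (SD, n = 2), a 5.04-fold difference. On the log2(FPKM + 0.1) scale this was −1.12 ± 0.381 (SE), while pseudocounts of 1 and 0.01 gave −0.22 and −2.10. With 1 liver left out it lay between −1.37 and −0.87, and the difference was under 2-fold on this scale without WT 2 (−0.87) and without Brg1LKO 1 (−0.98). Kidney tubule markers, checked because *Bmp7* is a kidney gene, were at 0 in all livers for 7 of 10, and their sum ranged from 0.915 to 1.32 FPKM in WT and from 1.02 to 1.46 FPKM in Brg1LKO livers.

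The other BMP ligands did not pass the threshold. *Bmp2* and *Bmp4*, together with *Gdf2* (BMP9) and *Bmp6*, are made mainly by non-parenchymal liver cells, and BMP2 and BMP6 from endothelial cells drive hepcidin. *Bmp4* was at 1.23 and 1.41 FPKM in WT and at 1.15 and 0.934 FPKM in Brg1LKO livers, with a log2 fold change of −0.31. *Bmp2* was at 0.966 and 1.28 FPKM in WT livers, and at 0.403 and 1.29 FPKM in Brg1LKO livers. The single low liver, Brg1LKO 1, set its log2 fold change of −0.54, which was 0.20 without that liver and −1.27, past the threshold, without Brg1LKO 2. In Brg1LKO 1 the summed FPKM of 10 sinusoidal endothelial markers was also lowest, at 28.2 against 37.0 to 38.0 in the other livers, and the part of these cells in the *Bmp2* value was not tested. *Bmp6*, at 0.0718 to 0.187 FPKM, was as scarce as *Bmp7* and overlapped between the genotypes. The BMP ligands other than *Bmp7* are named here after their values were seen.

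*Tgfb1*, the main TGF-beta of the inflamed liver, made up 73.3% to 90.2% of the summed FPKM of the TGF-beta genes in every liver. It was at 1.13 and 1.59 FPKM in WT and at 1.19 and 1.22 FPKM in Brg1LKO livers. The Brg1LKO values lay between the WT values. The log2 fold change was −0.14 ± 0.345 (95% interval −0.88 to 0.60) and was 0.09 without WT 2. *Tgfb2* was at 0.0209 and 0.0318 FPKM in WT and at 0.0190 and 0.0233 FPKM in Brg1LKO livers, which is about 7.58 to 13.0 reads per liver. No difference in *Tgfb2* was detectable at this depth.

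*Inhbe* and *Inhbc* encode the activin βE and βC chains, which are made mostly by hepatocytes, the cells that lost Brg1. They are neighbours on the minus strand of chromosome 10, at chr10:127348857-127354411 and chr10:127356322-127370431, with 1910 bases between the annotated transcripts. *Inhbe* was at 9.53 and 13.3 FPKM in WT and at 8.38 and 16.8 FPKM in Brg1LKO livers, so the WT levels fell between the Brg1LKO levels. Its log2 fold change was 0.08 ± 0.388 (95% interval −0.75 to 0.91), and leaving out WT 1 or Brg1LKO 2 turned it to −0.16 and −0.42. *Inhbc* was at 6.04 and 11.7 FPKM in WT and at 3.09 and 10.4 FPKM in Brg1LKO livers. The lower liver of each genotype was liver 1, and the spread within a genotype was larger than the gap between the means. The log2 fold change of *Inhbc* was −0.56 ± 0.496 (95% interval −1.63 to 0.51), −1.42 and past the threshold without Brg1LKO 2, and 0.30 without Brg1LKO 1. The annotated *Inhbe* transcript of 5319 bases starts 2563 bases upstream of the RefSeq start, and its FPKM depends on that length.

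The windows around the starts of this pair are shown because they are the most abundant genes of the set and share a neighbourhood, for comparison with the start regions of the SMAD genes further on. Each is 270 bases of the GRCm38.p6 RefSeq sequence, 250 before the start and 20 from it on, read along the gene's strand. Capitals mark GGCGCC or GGAGCC, the GC-rich letters known from BMP-responsive elements, and GTCTAGAC, the palindromic SMAD binding element, on either strand.
*Inhbe*, chr10:127351829-127352098, minus strand: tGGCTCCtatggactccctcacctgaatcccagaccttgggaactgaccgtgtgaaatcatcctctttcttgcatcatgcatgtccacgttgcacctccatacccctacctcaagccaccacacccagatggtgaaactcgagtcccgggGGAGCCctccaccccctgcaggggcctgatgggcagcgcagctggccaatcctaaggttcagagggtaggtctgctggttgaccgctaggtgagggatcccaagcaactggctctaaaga
*Inhbc*, chr10:127370529-127370798, minus strand: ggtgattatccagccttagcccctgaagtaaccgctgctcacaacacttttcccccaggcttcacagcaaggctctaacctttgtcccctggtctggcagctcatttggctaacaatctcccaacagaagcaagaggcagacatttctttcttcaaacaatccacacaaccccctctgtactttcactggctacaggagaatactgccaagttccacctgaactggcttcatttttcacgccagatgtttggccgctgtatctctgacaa
The *Inhbe* window held GGAGCC at 2 places and 6 CpG dinucleotides, and the *Inhbc* window held none of the capitalized motifs and 3 CpG. The letters CAGAC on either strand, searched but not put in capitals, were at 2 places in each window. They were in 45.4% of all promoters searched. The median over 32851 promoters was 6 CpG, with quartiles of 2 and 18. GC content was 57.8% for *Inhbe* and 49.3% for *Inhbc*, against a median of 52.6%.

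*Inhba* and *Inhbb* encode the βA and βB chains of the activins A and B, which signal through SMAD2 and SMAD3. *Inhbb* was at 4.43 and 3.51 FPKM in WT and at 3.81 and 1.64 FPKM in Brg1LKO livers. Brg1LKO 2 was the low liver, and Brg1LKO 1 lay between the WT livers. The log2 fold change of *Inhbb* was −0.63 ± 0.403 (95% interval −1.50 to 0.24), with −1.21, past the threshold, when Brg1LKO 1 was left out and −0.05 when Brg1LKO 2 was left out. *Inhba* was at 0.183 and 0.205 FPKM in WT and at 0.131 and 0.450 FPKM in Brg1LKO livers. Here Brg1LKO 2 was the high liver, and the log2 fold change of 0.28 ± 0.428 (95% interval −0.64 to 1.20) became −0.35 without it. In this liver the summed FPKM of 11 macrophage markers was 139.4, against 48.8 and 49.9 in WT and 63.2 in Brg1LKO 1, and the part of macrophages in the *Inhba* and *Inhbb* values was not tested.

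*Fst* encodes follistatin, which binds activins and holds them away from their receptors, and is secreted by hepatocytes. It was at 2.34 and 1.35 FPKM in WT and at 2.80 and 0.348 FPKM in Brg1LKO livers. The highest and the lowest liver of the 4 were both Brg1LKO livers. The log2 fold change was −0.72 ± 0.628 (95% interval −2.07 to 0.63), the largest SE of the set, and was −2.07, past the threshold, without Brg1LKO 1 and 0.62 without Brg1LKO 2. Set against its targets, *Fst* was 0.506 and 0.364 times the summed FPKM of *Inhba* and *Inhbb* in WT livers, and 0.710 and 0.166 times in Brg1LKO livers. The ratio thus ranged more widely between the Brg1LKO livers than between the WT livers. *Fst*, *Inhba*, *Inhbc*, *Inhbe* and *Tgfb2* overlap annotated transcripts on the opposite strand, and whether strand was used in the counting is not given in the sources used here.

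**Figure D2:**
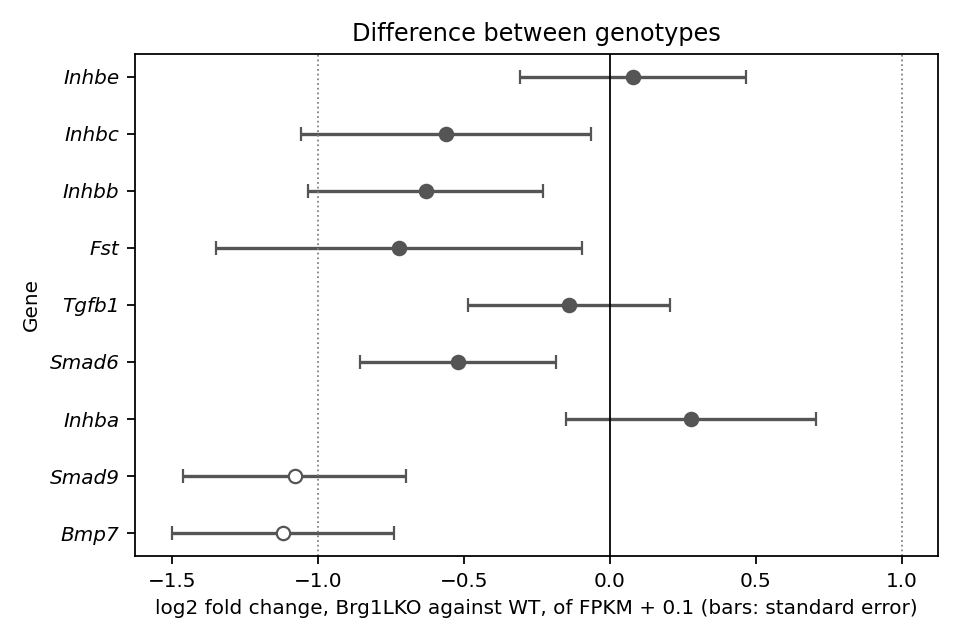
Log2 fold change of FPKM + 0.1 between Brg1LKO and WT livers for the 9 genes past the filter on low values, with bars for the standard error, dotted lines at the 2-fold threshold and open circles for the genes picked on this contrast. *Bmp7* and *Smad9* are the 2 genes beyond −1, and the other 7 lie between −0.72 and 0.28.

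In all, 30 ligand genes of the family were looked up. Leaving out *Bmp7*, 14 were tested, and none was past the threshold. Another 3 (*Bmp8a*, *Gdf7* and *Mstn*) were listed at 0 in all livers. The summed FPKM of the 30 was 28.7 and 47.8 in WT and 32.9 and 42.2 in Brg1LKO livers, so the total overlapped between the genotypes. *Inhbb*, *Inhbc* and *Inhbe* together gave 69.8% and 59.6% of it in WT and 46.4% and 68.3% in Brg1LKO livers. *Inhbc* gave 9.39% in Brg1LKO 1 and between 21.1% and 24.6% in the other livers. *Gdf15*, a stress-induced ligand that acts through a receptor outside this system, ranked by mean FPKM after *Inhbe* and *Inhbc* and ahead of *Inhbb*, and was the most abundant ligand in Brg1LKO 1. It was at 2.12 and 10.1 FPKM in WT and at 11.7 and 4.63 FPKM in Brg1LKO livers. Its log2 fold change was 0.65 ± 0.588. Leaving out WT 2 or Brg1LKO 2 took *Gdf15* past the threshold, at 1.75 and 1.31, and leaving out WT 1 turned it to −0.45. The median log2 fold change of the 14 ligands was 0.03.

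**Figure D3:**
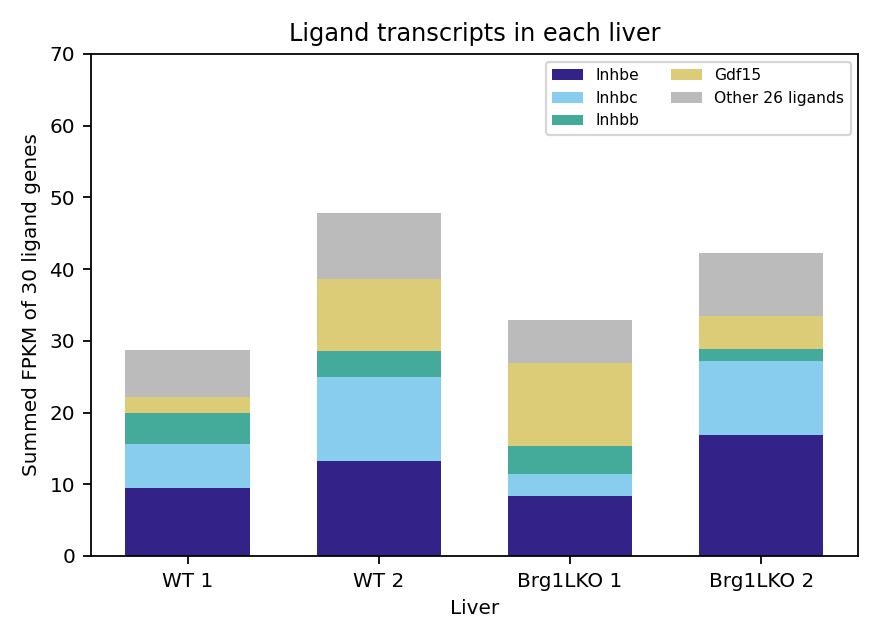
Summed FPKM of 30 ligand genes in each liver, stacked by gene, with the 26 genes other than *Inhbe*, *Inhbc*, *Inhbb* and *Gdf15* in grey. The totals run from 28.7 FPKM in WT 1 to 47.8 FPKM in WT 2, with both Brg1LKO livers between them.

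No receptor or co-receptor gene of these ligands was past the threshold with all 4 livers, and *Nrros*, which anchors latent TGF-beta on macrophages, passed it without Brg1LKO 1. Of 12 receptor genes 9 were tested, with log2 fold changes from −0.23 to 0.37. The most abundant were *Tgfbr2*, the TGF-beta type II receptor (3.49 and 4.53 FPKM in WT, 6.17 and 3.99 FPKM in Brg1LKO livers), and the BMP type I receptors *Acvr1* (log2 fold change −0.18) and *Bmpr1a* (0.06). Of 10 co-receptors and related membrane proteins 9 were tested, with a median of −0.23. Both Brg1LKO livers were below both WT livers for 4 of these 9, *Hfe2* among them, where this held for 10% of all genes tested. *Hfe2* encodes hemojuvelin, the BMP co-receptor of hepatocytes, and was at 7.05 and 7.75 FPKM in WT and at 5.85 and 6.75 FPKM in Brg1LKO livers (log2 fold change −0.23). *Tmprss6*, the protease that cleaves hemojuvelin, overlapped (0.15), as did *Eng*, the endothelial co-receptor endoglin (−0.39).

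*Smad9*, also called Smad8, is the least abundant of the SMADs that BMP receptors activate, and lies at chr3:54755582-54801257 on the plus strand with 6 exons. It was at 0.246 and 0.354 FPKM in WT and at 0.129 and 0.0539 FPKM in Brg1LKO livers. Both Brg1LKO livers were below both WT livers. These levels rested on 107 and 152 estimated reads in WT and on 54 and 21 in Brg1LKO livers. The means were 0.300 ± 0.0764 FPKM in WT and 0.0913 ± 0.0529 FPKM in Brg1LKO livers (SD, n = 2), a 3.29-fold difference, and the log2 fold change was −1.08 ± 0.382 (SE), or −0.25 with a pseudocount of 1 and −1.70 with 0.01. Leaving out 1 liver in turn moved it between −1.37 and −0.80, and the difference was under 2-fold without WT 2 (−0.88) and without Brg1LKO 2 (−0.80).

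*Smad6*, the inhibitory SMAD of the BMP branch, lies at chr9:63953076-64022059 on the minus strand with 4 exons, on the same chromosome as *Smarca4* but far from it. It was at 1.23 and 1.12 FPKM in WT and at 0.775 and 0.802 FPKM in Brg1LKO livers. The livers of each genotype lay close together, and the genotypes did not overlap. The means were 1.18 ± 0.0722 and 0.789 ± 0.0192 FPKM (SD, n = 2), so the Brg1LKO mean was 67.1% of the WT mean. The log2 fold change was −0.52 ± 0.337 with a 95% interval of −1.25 to 0.20, so the difference did not pass the test. It stayed between −0.58 and −0.46 when each liver was left out in turn.

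The start regions of *Smad6* and *Smad9* are shown because both genes are known BMP targets and both had Brg1LKO values below the WT values, with the same window and capitals as above.
*Smad6*, chr9:64022040-64022309, minus strand: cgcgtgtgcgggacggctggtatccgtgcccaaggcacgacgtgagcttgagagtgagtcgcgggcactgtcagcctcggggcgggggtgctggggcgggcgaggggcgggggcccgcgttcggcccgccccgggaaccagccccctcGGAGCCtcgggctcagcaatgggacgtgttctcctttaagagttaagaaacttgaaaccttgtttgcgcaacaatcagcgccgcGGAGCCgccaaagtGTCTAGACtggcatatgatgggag
*Smad9*, chr3:54755332-54755601, plus strand: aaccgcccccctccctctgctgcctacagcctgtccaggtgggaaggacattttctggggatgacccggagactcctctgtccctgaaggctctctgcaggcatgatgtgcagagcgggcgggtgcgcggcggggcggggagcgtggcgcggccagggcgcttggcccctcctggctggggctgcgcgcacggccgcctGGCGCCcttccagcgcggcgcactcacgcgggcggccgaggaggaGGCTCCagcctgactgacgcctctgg
The *Smad6* window held GTCTAGAC across the start, which 0.183% of the 32851 promoters held, and GGAGCC at 2 places, which 27.8% held. The *Smad9* window held GGCGCC, found in 10.4% of promoters, and GGAGCC on the opposite strand. GGAGCC was also in the windows of *Tgfb1*, *Inhba* and *Inhbe*. CAGAC was in neither SMAD window, nor in those of *Tgfb1*, *Inhba* and *Inhbb*, and was at 2 places in that of *Tgfb2*. The *Smad6* and *Smad9* windows were rich in CpG, with 27 and 25, above the upper quartile of 18. Their GC contents were 65.6% and 72.6%. The windows of *Tgfb1* (26 CpG, GC 76.3%) and *Inhbb* (22 CpG, GC 66.3%), whose levels overlapped between the genotypes, were as rich. These are matches of letters, and binding of SMADs or Brg1 was not measured here. Of the 10 genes 8 were matched in the RefSeq promoter table, and *Bmp7* and *Fst* were not.

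The other 7 SMAD genes were all tested, and none was past the threshold. *Smad1*, *Smad5* and *Smad9* together summed to 3.59 and 3.25 FPKM in WT and to 3.30 and 2.93 FPKM in Brg1LKO livers. *Smad9* gave 6.86% and 10.9% of this sum in WT livers and 3.90% and 1.84% in Brg1LKO livers, so most of the BMP-activated SMAD transcript was *Smad1* in every liver. *Smad1* was at 2.46 and 1.89 FPKM in WT and at 2.37 and 1.74 FPKM in Brg1LKO livers (log2 fold change −0.08). *Smad4*, the shared partner, was the most abundant SMAD, at 4.13 to 5.59 FPKM in WT and 4.86 to 6.31 FPKM in Brg1LKO livers (0.20). *Smad3*, activated by TGF-beta and activin receptors, was at 1.13 and 1.53 FPKM in WT and at 0.807 and 1.35 FPKM in Brg1LKO livers (−0.30). *Smad7*, the other inhibitory SMAD and named here after its values were seen, was at 0.332 and 0.418 FPKM in WT and at 0.269 and 0.319 FPKM in Brg1LKO livers (−0.27). Leaving out *Smad9*, 2 of the 7 SMADs, *Smad6* and *Smad7*, had both Brg1LKO livers below both WT livers, where this held for 10% of all genes tested, and the median of the 7 was −0.08.

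**Figure D4:**
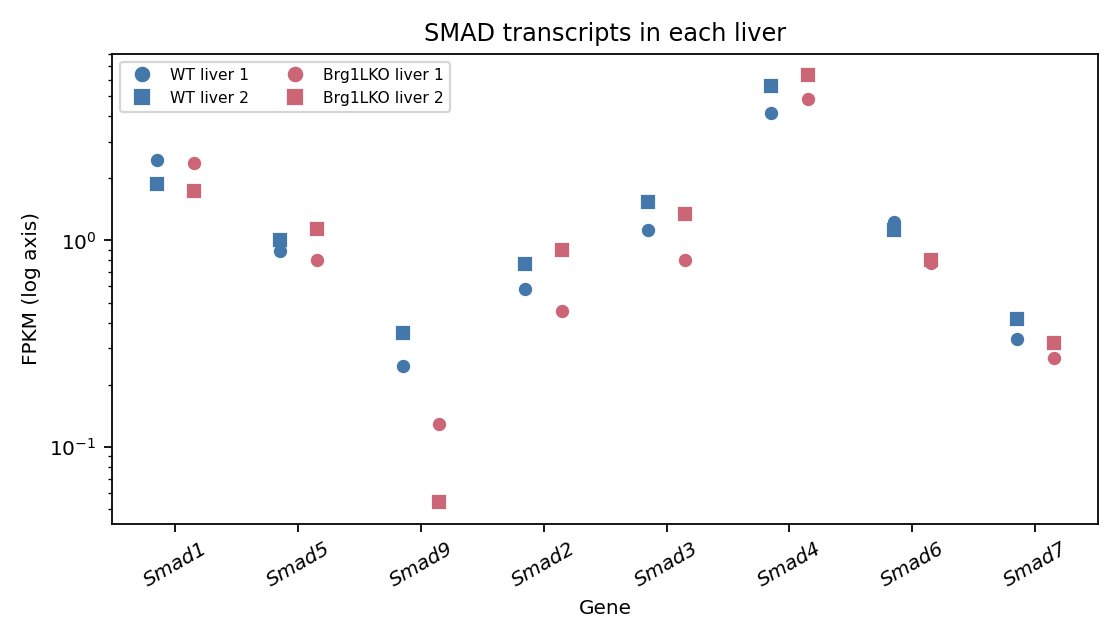
FPKM of the 8 SMAD genes in each liver on a log axis, with WT livers in blue and Brg1LKO livers in red (circles liver 1, squares liver 2). *Smad9*, *Smad6* and *Smad7* separate by genotype, with *Smad9* at 0.246 and 0.354 FPKM in WT and 0.129 and 0.0539 FPKM in Brg1LKO livers.

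Genes known to be switched on by BMP and by TGF-beta signals were counted next. Of 11 BMP target genes, none but the picked *Smad9* stood past the threshold. Leaving *Smad9* out, both Brg1LKO livers were below both WT livers for 5 of 10 (*Smad6*, *Smad7*, *Atoh8*, *Bambi* and *Id4*) and above for 1 (*Id3*), and the median log2 fold change was −0.35, where 10% of all genes tested had both Brg1LKO livers below and their median was −0.02. *Id4* is in this count by a narrow margin, at 0.1637 and 0.1583 FPKM in WT and at 0.0771 and 0.1577 FPKM in Brg1LKO livers. The list holds *Smad6* and *Smad9* themselves and was chosen with earlier results of these data known, so the count is a description. *Atoh8*, a BMP-induced transcription factor of hepatocytes, named after its values were seen, was at 2.21 and 3.53 FPKM in WT and at 1.83 and 1.29 FPKM in Brg1LKO livers. Its log2 fold change of −0.83 ± 0.365 was under 2-fold and so not past the threshold, which it passed without WT 1 (−1.15) and without Brg1LKO 1 (−1.06). *Bambi*, a decoy receptor, was at 0.157 and 0.164 FPKM in WT and at 0.0939 and 0.0902 FPKM in Brg1LKO livers (−0.44).

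The most abundant BMP targets overlapped between the genotypes. *Hamp* was at 596 and 258 FPKM in WT and at 1092 and 86.9 FPKM in Brg1LKO livers, the highest and the lowest level both being in Brg1LKO livers. Its paralog *Hamp2*, which is nearly identical and may share reads with it, followed the same order at 150.0 and 68.9 FPKM against 273 and 23.3 FPKM. The log2 fold change of *Hamp* was −0.35 ± 0.792, and it was past the threshold in opposite directions without Brg1LKO 1 (−2.17) and without Brg1LKO 2 (1.48). In Brg1LKO 1 the summed FPKM of 8 erythroid genes was 181, against 21.9 to 40.5 in the other livers, and its part in these values was not tested. *Id2*, an inhibitor of helix-loop-helix factors, was at 46.8 and 38.2 FPKM in WT and at 30.7 and 78.4 FPKM in Brg1LKO livers (0.22).

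Of 14 TGF-beta target genes 13 were tested, 10 had a log2 fold change above 0, and the median was 0.25, or −0.05 without WT 1. The 1 past the threshold moved the other way. *Pmepa1*, a TGF-beta-induced gene whose membrane protein keeps SMAD2 and SMAD3 from the receptor, was at 0.542 and 0.687 FPKM in WT and at 0.324 and 0.164 FPKM in Brg1LKO livers. It fell with a log2 fold change of −1.09 ± 0.375, and was under 2-fold without WT 2 (−0.94), without Brg1LKO 2 (−0.74) and with a pseudocount of 1 (−0.38). *Fn1*, fibronectin, which hepatocytes make in bulk, was at 661 and 367 FPKM in WT and at 631 and 838 FPKM in Brg1LKO livers (0.56). *Junb*, an early response gene, had a log2 fold change of 0.02.

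In the remaining lists *Pmepa1*, counted there as an intracellular regulator too, was the 1 gene past the threshold. None of 11 tested antagonists passed the threshold, and *Dcn*, encoding the matrix proteoglycan decorin, and *Twsg1*, a BMP-binding protein, had log2 fold changes of 0.00 and −0.10. Of 12 genes of latency and processing 7 were tested with a median of 0.02. Among them the protease genes *Furin* (0.11) and *Bmp1* (−0.14) overlapped, and *Ltbp4*, a latent TGF-beta binding protein, was below WT in both Brg1LKO livers (−0.46). All 12 intracellular regulators were tested, with a median of −0.12, and *Stub1* (−0.10), *Ppm1a* (−0.01) and *Ski* (−0.15) overlapped. In all, 119 genes of the pathway were in the table, and 89 passed the filter on low values. Without the picked pair, 1 of 87 (*Pmepa1*, lower) was past the threshold, where 0.98% of all genes were called. The median of these 87 was −0.04, against −0.02 over all genes tested.

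**Figure D5:**
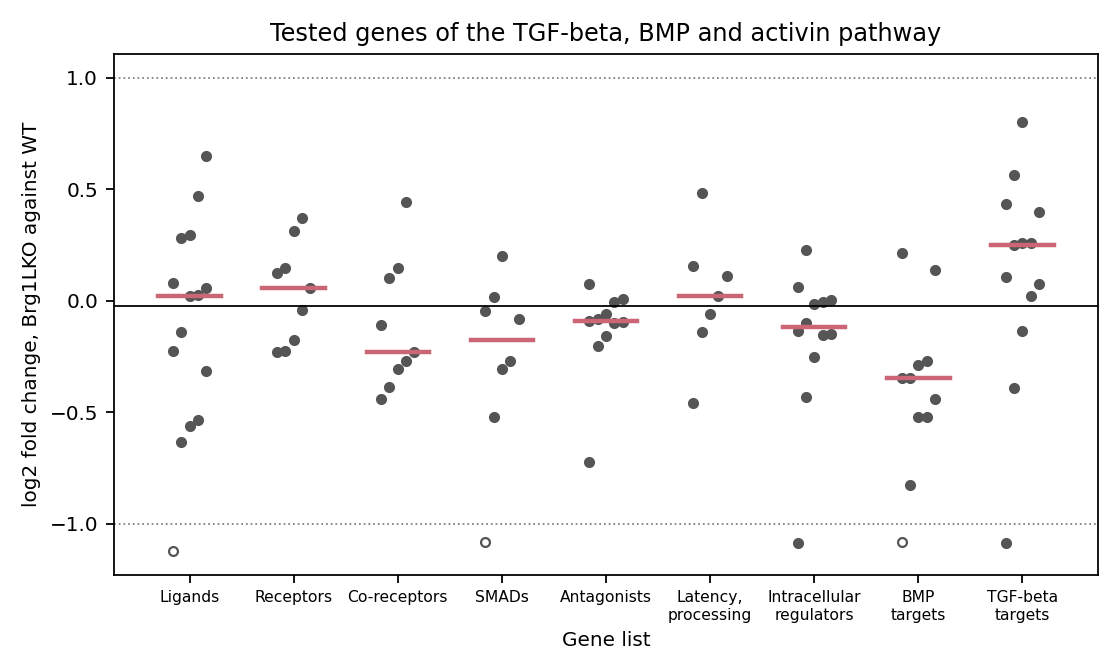
Log2 fold change of FPKM + 0.1 between Brg1LKO and WT livers for the tested genes of each list, with red bars for list medians, a black line for the median of all genes tested, dotted lines at 2-fold and open circles for *Bmp7* and *Smad9*. The medians run from −0.35 for the BMP targets to 0.25 for the TGF-beta targets, and a gene of several lists is drawn in each.

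Markers of the liver's cell types were set beside these results. The macrophage list had 11 of 11 genes above 0 and 3 past the threshold (*Cd68*, *Vsig4* and *Cd5l*), with a median log2 fold change of 0.84, and 0.25 without Brg1LKO 2. The 10 sinusoidal endothelial markers had log2 fold changes from −0.50 to −0.01, with a median of −0.28, or 0.03 without Brg1LKO 1, and sums of 37.0 and 38.0 FPKM in WT against 28.2 and 37.3 FPKM in Brg1LKO livers. The summed stellate cell markers overlapped between the genotypes, at 86.8 and 112 FPKM against 82.3 and 105 FPKM. Most of each sum was *Ecm1*, at 73.3 and 91.9 FPKM in WT and 68.7 and 87.2 FPKM in Brg1LKO livers. Of the 9 stellate markers tested, 2 had both Brg1LKO livers below both WT livers and 1 had both above. This held for 10% and 10.7% of all genes tested. The cholangiocyte sum was 5.27 and 5.95 FPKM in WT and 4.28 and 4.64 FPKM in Brg1LKO livers, with *Krt7*, *Cftr* and *Sctr* below 0.1 FPKM throughout. The hepatocyte markers had a median of 0.08. Of 8 mesothelial markers 3 were tested, with a median of −0.68. *Krt18* was among the 3, far above the others at 33.7 to 61.1 FPKM, with a log2 fold change of 0.345. *Wt1*, *Muc16* and *Lrrn4* were below 0.1 FPKM in all livers. Mesothelin (*Msln*) was at 0.117 and 0.651 FPKM in WT and at 0.224 and 0.0130 FPKM in Brg1LKO livers and so overlapped, as did *Upk3b* (0.0369 and 0.352 against 0.114 and 0.0117 FPKM). Of 10 neutrophil markers 5 were tested, with a median of 0.26. The sums of the 10 were 11.6 and 4.48 FPKM in WT and 16.6 and 8.26 FPKM in Brg1LKO livers, and so overlapped. Most of each sum was *S100a9*, at 8.64 and 2.99 FPKM in WT and 12.3 and 6.10 FPKM in Brg1LKO livers. *Ly6g*, *Mpo*, *Elane* and *Camp* were below 0.1 FPKM in all livers. The part of any of these cell types in the values of *Bmp7*, *Smad9* and *Smad6* was not tested.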

How the data were processed

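Liver RNA of 2 WT and 2 Brg1LKO mice was compared. The authors deposited FPKM values, 1 per gene and liver, for transcripts of GRCm38. The submitters' processing notes name HISAT2 2.0.4 and StringTie 2.1.4, the paper names Cufflinks, and no normalization between libraries is stated. The paper describes stranded TruSeq libraries on an Illumina instrument and the labels a BGIseq protocol.

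Reads were estimated from the steps of low FPKM values with GENCODE M21 lengths, and 88.6% to 89.7% of low values were whole within 0.1 read. Limits from reads cover counting error only. Genes whose mean reached 0.1 FPKM were tested as log2(FPKM + 0.1) with limma 3.58.1 (R 4.3.3, lmFit and eBayes with trend) with Benjamini-Hochberg adjustment. Unadjusted p-values of single genes served the call alone and are not printed. The procedure was tested on simulated data in which only genes above the levels of *Bmp7* and *Smad9* were changed. How well it finds changes at their levels was not tested. Of 216 listed genes 5 stood under an older symbol and 2 were not found. Named are the 10 genes, the 3 most abundant genes of each pathway list, every pathway gene past the threshold, and *Smarca4*. Values of 1 gene that this rule names are not reported here. The members and lists were chosen with earlier results of these data known. Alternatives were other pseudocounts, filters and scalings, eBayes without trend, a replicate block, and each liver left out.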

Additional observations from a re-analysis of the deposited data

How the results depend on the processing

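Of 448 alternative values of the tested single genes, 398 kept their direction and their side of the threshold, 35 reversed, 11 passed it newly and 4 lost it (*Smarca4* and *Pmepa1*). A reversed value is counted only as reversed, also where it was past the threshold. Changes of filter, trend or block leave each fold change as it is, so these could not reverse or move one. Of 22 values of *Bmp7* and *Smad9*, which carry no test, the 4 with other pseudocounts moved by more than the spread between livers. The other 18 moved by less. For the left-out livers this was fixed in advance, as leaving out 1 of 2 cannot move a value by more than that spread. For *Bmp7* the difference was under 2-fold without WT 2 or Brg1LKO 1, and for *Smad9* without WT 2 or Brg1LKO 2. *Smad6*, *Smad9*, *Bmp7*, *Inhbb* and *Pmepa1* were below 0 under every alternative that kept them, and the filter at 1 FPKM removed all of these but *Inhbb*. For all of these but *Inhbb*, both Brg1LKO livers were below both WT livers. Leaving out a liver or changing the pseudocount could thus not change their sign, and nothing is read from it. The 121 genes past the threshold became 18 with a pseudocount of 1, 80 with no filter and 68 with a filter at 1 FPKM, and ranged from 78 (without WT 2) to 552 (without Brg1LKO 1) with 1 liver left out, with 231 without WT 1 and 450 without Brg1LKO 2. Genes with an adjusted p under 0.05 numbered 0, became 2 with the filter at 1 FPKM (150 at an unadjusted p under 0.05), and ranged from 0 to 269 with 1 liver left out, with 140 without Brg1LKO 2. A lone liver is then assumed to vary like the other genotype. The pathway genes past the threshold, 3 with the picked pair counted (*Bmp7*, *Smad9* and *Pmepa1*), became 0 with a pseudocount of 1 and 0 with the filter at 1 FPKM, which removes all 3, and ranged from 1 (*Gdf15*, without WT 2) to 10 (without Brg1LKO 1), with 5 without WT 1 and 8 without Brg1LKO 2. The cause of the other moves was not tested.

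*Smarca4* was at −0.85 with a pseudocount of 1. With 1 liver left out, the log2 fold changes that reversed ranged as follows: *Tgfb1* −0.37 to 0.088, *Inhba* −0.35 to 0.91, *Inhbc* −1.42 to 0.30, *Inhbe* −0.42 to 0.58, *Fst* −2.07 to 0.62, *Gdf15* −0.45 to 1.75, *Bmp2* −1.27 to 0.20, *Bmpr1a* −0.022 to 0.13, *Tmprss6* −0.14 to 0.43, *Smad4* −0.014 to 0.42, *Smad1* −0.29 to 0.13, *Smad3* −0.64 to 0.035, *Dcn* −0.18 to 0.17, *Twsg1* −0.30 to 0.12, *Bmp1* −0.46 to 0.18, *Stub1* −0.33 to 0.13, *Ppm1a* −0.32 to 0.30, *Ski* −0.42 to 0.11, *Hamp* −2.17 to 1.48, *Hamp2* −2.12 to 1.43, *Id2* −0.46 to 0.89 and *Junb* −0.31 to 0.35. The median of all genes then ranged from −0.17 to 0.12. Median-ratio rescaling gave 0.03 for *Dcn* and 0.021 for *Ppm1a*, and quantile normalization gave −0.014 for *Junb*.

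The deviations of same-numbered livers from their group means correlated at r = 0.031 across 12346 genes, which are not independent replicates. This r does not register a shift shared by all genes. The median-ratio scaling factors were 0.912 and 0.885 for WT 1 and Brg1LKO 1, and 1.13 and 1.11 for WT 2 and Brg1LKO 2. Whether same-numbered livers share more than a number was not tested. The replicate block gave 108 genes past the threshold, 0 with an adjusted p under 0.05, 357 with an unadjusted p under 0.05 and 3 pathway genes. With 2 livers per genotype and few reads on *Bmp7*, *Smad9* and *Tgfb2*, small differences were not detectable.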

Other observations

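*Lefty1*, a secreted inhibitor of Nodal signals chosen here after its values were seen, was below the filter on low values. It was at 0.107 and 0.108 FPKM in WT livers and at 0.0316 and 0.0340 FPKM in Brg1LKO livers, and was not tested. *Tgfb3*, also chosen after its values were seen, was at 0.128 and 0.148 FPKM in WT and at 0.416 and 0.110 FPKM in Brg1LKO livers, and Brg1LKO 1 alone stood apart.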
